A study of Rattus norvegicus with 6 samples.

Results

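The chaperone set held 34 genes of the cytosolic and mitochondrial protein folding machinery, chosen by gene symbol, and all 34 were found among 35362 gene rows. The cells were INS-1, an insulin-secreting line derived from a rat insulinoma and used as a model of the beta cell, at passages 75 to 80. They had been transduced with retroviruses made from pMX-puro-Flag-Menin, so all carried a Flag-tagged menin transgene, in 1 of 2 mutant forms of the nuclear scaffold protein menin. S487A puts alanine, a residue without a phosphorylation site, in place of the serine there, and S487D puts the acidic residue aspartate. Each group had 3 libraries, with no drug or time course in the labels. Cells without the transgene or with wild-type menin were not analysed here, so each direction is that of S487D relative to S487A. Whether the 3 libraries of a mutant stem from separate cultures, transductions or clones is not in the labels, so p-values reflect only the scatter among these samples, which may be technical. In bulk RNA, fewer cells with a transcript and less of it per cell cannot be told apart.

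Chaperones bind unfolded or partly folded proteins and help them fold, assemble or reach degradation. HSP70 proteins hold and release short unfolded stretches in a cycle driven by ATP, in which J-domain proteins deliver the client and nucleotide exchange factors free it. HSP90 takes over later folding steps of kinases and steroid receptors with a group of co-chaperones, and closed rings such as TRiC (also called CCT) in the cytosol and Hspd1 with Hspe1 in mitochondria enclose whole proteins. The transcription factor HSF1 raises many of these genes after heat or other proteotoxic stress by binding repeats of the letters GAA in alternating orientation, the heat shock element. Beta cells make very large amounts of a secreted protein and carry the same cytosolic and mitochondrial folding systems as other cells.

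Bag3, a nucleotide exchange factor of HSP70, rose 1.71-fold in S487D cells, and Hsph1, an exchange factor of the HSP110 family, fell 1.42-fold (folds here and below are on the log2(RPKM + 1) scale). Both are known targets of HSF1, so their promoters are shown first with that of the mitochondrial pair, as deposited in RefSeq for the GRCr8 build and read 5′ to 3′ on the strand of the gene. Capitals mark inverted pairs of heat shock units, GAANNTTC or TTCNNGAA. The stretches are the 250 bases before the annotated start of Bag3 (chr1:192533210-192533459, plus strand), of Hsph1 (chr12:10427118-10427367, plus strand) and of Hspe1 (chr9:64084077-64084326, plus strand). The last lies between the starts of Hspe1 and Hspd1, which point away from each other and are 290 bases apart in GRCr8.
Bag3: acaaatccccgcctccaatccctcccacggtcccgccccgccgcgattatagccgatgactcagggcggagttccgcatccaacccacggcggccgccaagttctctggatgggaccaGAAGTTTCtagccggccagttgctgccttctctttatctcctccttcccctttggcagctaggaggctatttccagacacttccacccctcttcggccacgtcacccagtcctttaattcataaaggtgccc
Hsph1: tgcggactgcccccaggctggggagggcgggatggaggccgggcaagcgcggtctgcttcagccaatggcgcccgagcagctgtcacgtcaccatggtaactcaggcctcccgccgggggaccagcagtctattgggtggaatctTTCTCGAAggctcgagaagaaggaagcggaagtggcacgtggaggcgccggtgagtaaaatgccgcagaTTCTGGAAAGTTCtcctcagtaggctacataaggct
Hspe1: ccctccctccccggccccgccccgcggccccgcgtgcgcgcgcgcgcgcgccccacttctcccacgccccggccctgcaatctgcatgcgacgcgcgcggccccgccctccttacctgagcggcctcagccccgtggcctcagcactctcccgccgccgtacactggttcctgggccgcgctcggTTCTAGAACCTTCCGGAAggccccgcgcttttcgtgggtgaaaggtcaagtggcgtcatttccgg

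A RefSeq promoter, 250 bases before to 50 after the start, was found for 29 of the 34 genes by symbol, with none for Hsp90aa1, Dnaja2, Dnajb4, Hsf1 and St13. A pair of units on either strand was present in 16 of the 29 (55.2%) and in 4233 of 27457 promoters of the same length (15.4%). A row of 3 alternating units, GAANNTTCNNGAA or TTCNNGAANNTTC, each of which contains pairs, was present in 6 of the 29 (20.7%) and in 202 of all promoters (0.736%). The 6 were Hspa8, Hspd1, Hspe1, Hsph1, Dnaja1 and Cct4. Each row of 3 is given below in capitals with 8 flanking bases on each side. The letters searched for make these rows alike, and their likeness was not measured. Those of Hspa8 (chr8:50080293-50080321 and chr8:50080451-50080479), Hsph1 (chr12:10427324-10427352) and Hspe1 (chr9:64084254-64084282 and chr9:64084259-64084287) lay before the start, by 213, 55, 36, 65 and 60 bases. Those of Dnaja1 (chr5:60638405-60638433) and Cct4 (chr14:101193074-101193102) began at bases 10 and 26 of the transcript, counting the start as base 1. Coordinates include the flanking bases, and distances are to the first capital. The first and second Hspe1 rows overlap and belong to the same run of alternating units, shown whole in the promoter above. The Hspd1 elements are the Hspe1 ones read on the other strand.
Hspa8, far: gcgagcgtGAAAGTTCCAGAAcgctgcgg
Hspa8, near: cggaacccTTCTGGAAGGTTCtaagacag
Hsph1: gccgcagaTTCTGGAAAGTTCtcctcagt
Hspe1, first: gcgctcggTTCTAGAACCTTCcggaaggc
Hspe1, second: cggttctaGAACCTTCCGGAAggccccgc
Dnaja1: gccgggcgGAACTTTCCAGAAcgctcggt
Cct4: gcgtcgctTTCTGGAAGGTTCgtggaggc

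Expression is given as RPKM, reads per kilobase of gene length scaled to the library's total of reads assigned to genes, with mean ± SD over 3 libraries per group. The libraries held 9444801 to 10867549 assigned reads, so that the 32 tested members had from 72 reads (Hspa2) to 25752 reads (Hsp90ab1) in a library. The members together took 0.954 to 0.995% of reads in S487A and 0.986 to 1.02% in S487D. Reads of ribosomal RNA rows took 0.93 to 2.49% in S487A and 2.15 to 4.50% in S487D. The row of Men1, the transgene's gene, was at 74.3 ± 2.8 RPKM in S487A cells and at 112 ± 7.8 in S487D cells. Reads of the transgene and of the cells' own Men1 were not told apart, so these values are not transgene levels. All 7 beta cell markers listed were at 1 RPKM or more, and they differed between the groups in both directions. Ins1 was at 4489 to 5019 RPKM in S487A and 16211 to 17297 in S487D, and Ins2, Iapp, Pdx1 and Slc2a2 were also called higher. Nkx6-1 was called lower, at 9.62 to 10.7 RPKM in S487A and 3.98 to 4.84 in S487D, as was Chga, at 3436 to 3575 and 3133 to 3289 RPKM. Markers of other tissues were low, with leukocyte, endothelial and fibroblast markers between 0 and 0.231 RPKM. The alpha cell hormone gene Gcg was also present, at 91.6 to 104 RPKM in S487A and 783 to 864 in S487D, while Sst and Ppy were listed at 0. Of the duct markers, Krt7 was at 207 to 226 RPKM in S487A and 80.5 to 84.3 in S487D, and Krt19 was at 0.505 RPKM or less. The part of these differences in the chaperone results was not tested. Within groups, S487D replicate 3 had the lowest value for 22 of 32 members, and S487A replicate 3 for 0 of 32.

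Of the 32 members tested (those with an RPKM of 1 or more in 3 or more libraries), 10 rose, 4 fell and 18 passed no test (limma on log2(RPKM + 1), Benjamini-Hochberg adjusted p under 0.05). That is 43.8% of the members called, beside 44.4% of all 12527 genes tested; the shares called higher and lower over all genes were 20.1% and 24.3%. Upward calls were 45.3% of all calls, or 58.9% once library medians were aligned, when 12 members were higher and 4 lower. The groups' values did not overlap in 15 of 32 members and in 54.6% of all genes tested. The median log2 change of the members was 0.05, against -0.01 over all genes, and their median absolute change was 0.11 against 0.17. The order of the medians depended on scaling. After median centring the members' median was 0.106 against 0.044 over all genes, and after quantile normalization 0.000172 against 0.033. One member, Bag3, was called at 1.5-fold or more, where 8.25% of all genes tested were, and Hsph1 fell 1.42-fold. The other 12 called members changed by at most 1.22-fold (Hspa14). The share of members called was thus close to that of all genes tested.

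**Figure D1:**
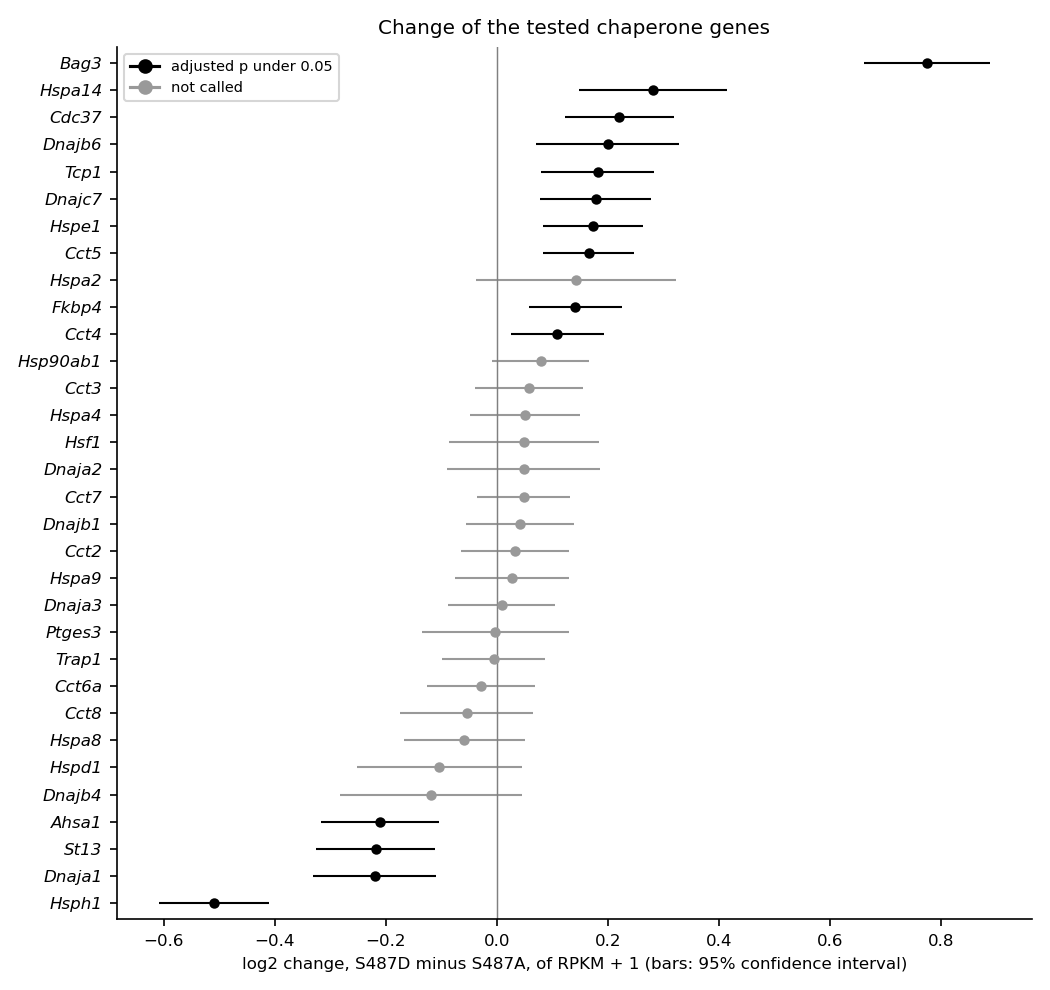
Log2 change of RPKM + 1 in S487D relative to S487A for the 32 tested chaperone genes, in order of size. Points are limma estimates and bars 95% confidence intervals, black where the adjusted p was under 0.05; Bag3 (0.78) and Hsph1 (-0.51) stand apart from the other genes, which lie between -0.22 and 0.28.

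The levels of the members spanned a wide range. Hsp90ab1, the constitutive cytosolic HSP90, ranked 28 of 12527 tested genes by mean RPKM, and Hspa2, an HSP70 known mainly from testis, ranked 10120. In all, 19 of the 32 members were among the highest 10% of tested genes. Spread between libraries of a group was low, with a coefficient of variation of 1.94 to 9.23% in S487A (median 4.27%) and 0.140 to 10.0% in S487D (median 2.93%).

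**Figure D2:**
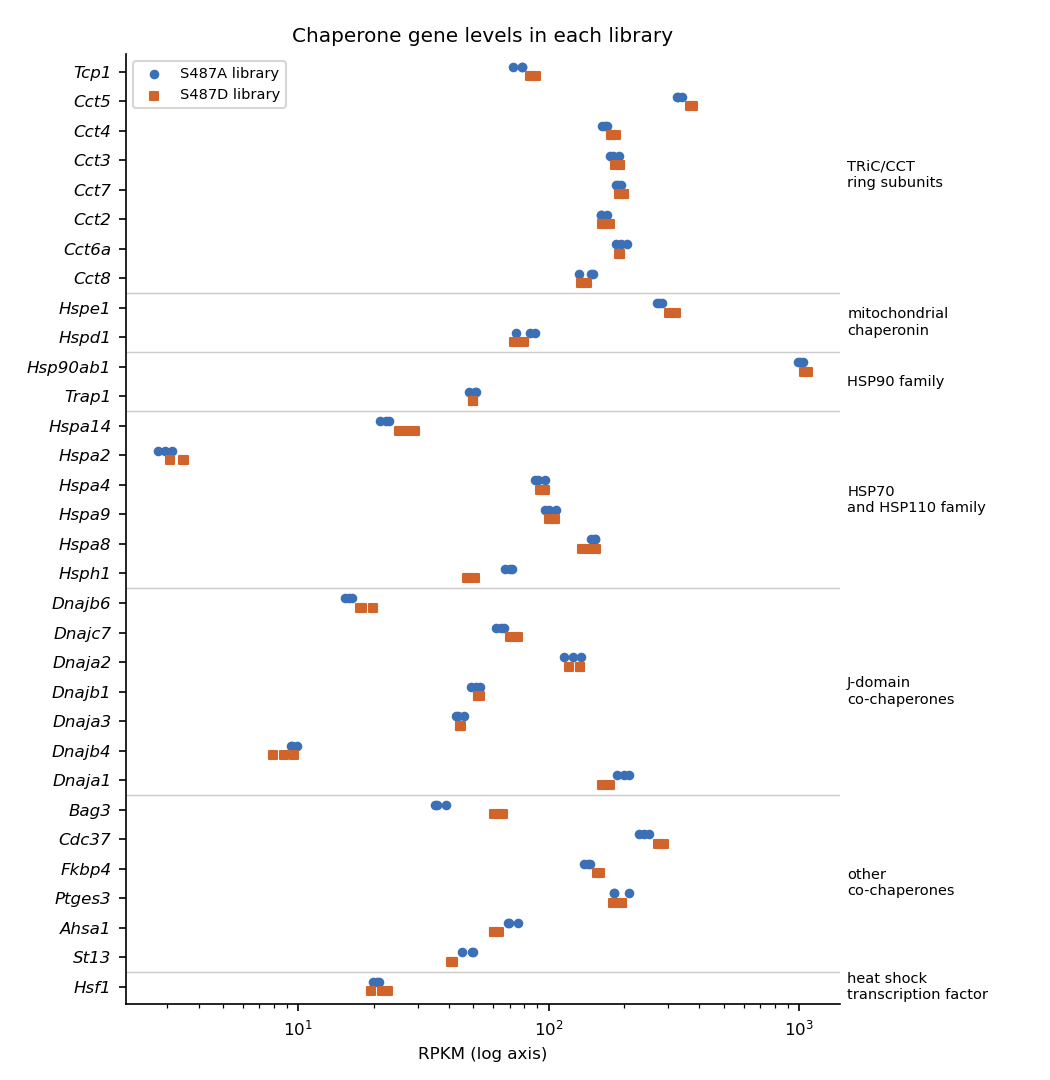
RPKM of each tested member in the 3 S487A (circles) and 3 S487D (squares) libraries on a log axis, grouped by role. Levels run from 2.77 RPKM for Hspa2 to 1080.5 for Hsp90ab1, and the groups lie farthest apart for Bag3 and Hsph1.

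The TRiC ring, which folds actin and tubulin, is built from 8 different subunits. Of their mRNAs, 3 of 8 were higher in S487D, 0 were lower and 5 passed no test (median log2 change 0.05). The share called, 37.5%, was near the 44.4% of all genes tested. Cct5 was read at 325, 328 and 341 RPKM in the S487A libraries and at 376, 367 and 372 in the S487D libraries, a 1.12-fold rise (log2 change 0.17, SE 0.036, adjusted p = 0.00508). Tcp1, the founding subunit of the ring, was read at 78.2, 72.2 and 78.1 RPKM in the S487A libraries and at 89.1, 86.1 and 84.3 in the S487D libraries (log2 change 0.18, adjusted p = 0.00919). In both genes every S487D library was above every S487A library. The rows of Tcp1, Cct7 and Cct8 share 202, 474 and 129 to 174 bases with rows on the other strand, whose reads this kit cannot tell apart. Cct4 rose from 167 ± 3.3 to 181 ± 4.4 RPKM (adjusted p = 0.0384, log2 change 0.11), a call near its threshold. Leaving out S487A replicate 1 or replicate 2 ended it (adjusted p = 0.0598 and 0.121), as did leaving out S487D replicate 1, 2 or 3 (0.147, 0.0784 and 0.0524), and it was lost under 4 other alternatives.

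The other subunits overlapped between groups. Cct6a was at 196 ± 10.1 RPKM in S487A and 192 ± 0.42 in S487D, with a 95% confidence interval of -0.13 to 0.07 for the log2 change. Cct8 was at 144 ± 10.0 and 138 ± 4.2 RPKM (interval -0.17 to 0.07). Cct2 was at 165 ± 5.8 and 169 ± 6.4 RPKM, Cct3 at 183 ± 8.3 and 190.0 ± 4.7, and Cct7 at 190 ± 3.7 and 196 ± 5.2, called higher after median centring alone (adjusted p = 0.0378). For these 3 genes, the intervals of the log2 change ran from -0.06 to 0.16 in all, so larger differences were outside them.

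Although each subunit occupies 1 place in a ring, their mRNA levels per length differed. Cct5 was the highest and Tcp1 the lowest in each library, and Cct2, Cct3, Cct4, Cct6a and Cct7 lay close together, with means between 165 and 196 RPKM. As a share of the summed RPKM of the 8 genes, which does not depend on how libraries are scaled, Cct5 took 22.6, 23.2 and 22.7% in S487A and 24.2, 24.3 and 24.7% in S487D. Cct6a took 13.5 ± 0.29% and 12.6 ± 0.20%, and Cct8 9.89 ± 0.56% and 9.06 ± 0.12%. Shares did not overlap between groups for 5 of 8 subunits, Cct4, Cct5 and Tcp1 being higher and Cct6a and Cct8 lower in S487D. Each of these had a two-sided exact permutation p of 0.1 (Benjamini-Hochberg adjusted 0.16 over the 8), and 0.1 is the smallest p that 3 libraries against 3 allow. The shares sum to 100% in a library, so a higher share of 1 gene lowers those of others, and they were computed after the values were seen. In RPKM, a different measure, the groups did not overlap in 3 of the 8 subunits and in 54.6% of all genes tested. Cct6a and Cct8 overlapped in RPKM and were not called. The summed level was 1452 ± 45 RPKM in S487A and 1524 ± 26 in S487D.

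**Figure D3:**
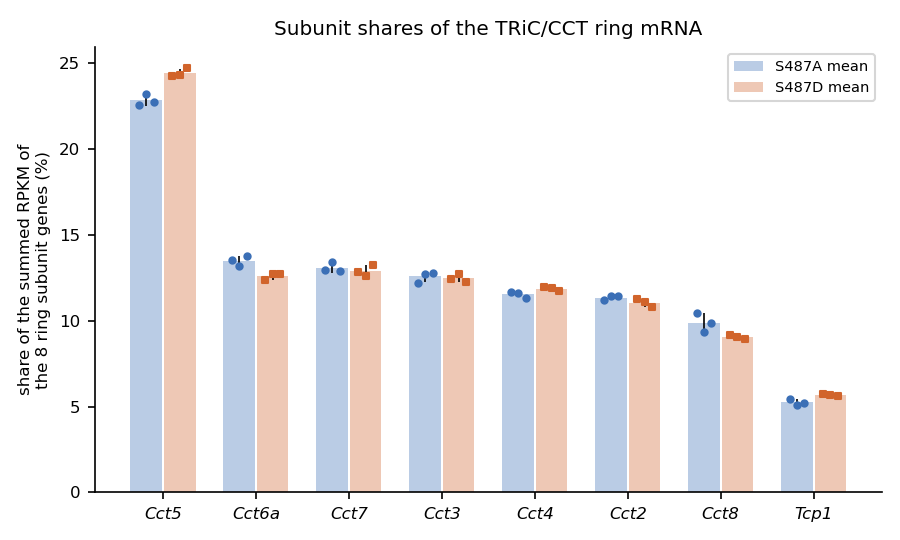
Share of each TRiC/CCT subunit gene in the summed RPKM of the 8 genes. Bars are group means, error bars SD over 3 libraries and points single libraries. The mean share of Cct5 was 22.8% in S487A and 24.4% in S487D, and the shares of Cct6a and Cct8 were lower in S487D. The RPKM of Cct6a and Cct8 overlapped between groups.

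Mitochondria fold imported proteins in a chamber of Hspd1 (HSP60) capped by Hspe1 (HSP10). Hspe1, on chromosome 9 from 61691246 to 61724948 in rn6, was read at 277, 271 and 284 RPKM in the S487A libraries and at 315, 322 and 301 in the S487D libraries (log2 change 0.17, SE 0.040, adjusted p = 0.00659). Hspd1, from 61680529 to 61691202, was read at 88.5, 73.7 and 84.0 RPKM in the S487A libraries and at 76.9, 79.3 and 72.4 in the S487D libraries (log2 change -0.10, interval -0.25 to 0.05, adjusted p = 0.237). The groups were apart for Hspe1 and overlapped for Hspd1, although the deposited rows of the 2 genes start 44 bases from each other. The Hspe1 to Hspd1 ratio was 3.40 ± 0.27 in S487A and 4.11 ± 0.050 in S487D, with no overlap (p = 0.1 in an exact permutation test, two-sided, the smallest possible, for a ratio computed after the values were seen). Without S487A replicate 2, Hspd1 was called lower (log2 change -0.18, adjusted p = 0.0290). The Hspe1 row runs 33 kb for 569 bases of exon and shares 4366 bases with Mob4 on the same strand, and Hspd1 has many pseudogenes, so single values of both are uncertain.

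Other mitochondrial members gave no call. Hspa9 (mortalin), the HSP70 that pulls proteins into the matrix, was at 101 ± 5.2 and 103 ± 2.7 RPKM (interval -0.07 to 0.13). Trap1, the mitochondrial HSP90, was at 50.0 ± 1.8 and 49.7 ± 0.069 RPKM (interval -0.10 to 0.09). Dnaja3, the J-domain partner of Hspa9, was at 44.0 ± 1.8 and 44.3 ± 0.19 RPKM (interval -0.09 to 0.11). For these 3 genes, a change of more than 1.1-fold lay outside the interval.

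Hsp90ab1 was the highest of the tested members, at 987, 1006 and 1035 RPKM in the S487A libraries and at 1074, 1080.5 and 1044 in the S487D libraries. The groups were apart by a small margin, and the gene was not called (log2 change 0.08, SE 0.039, adjusted p = 0.126), though it passed after median centring (0.0236) and with voom on recovered reads (0.0212). The stress-inducible Hsp90aa1, on chromosome 6 from 135107262 to 135112793, was listed at 0 in all 6 libraries. Hspb1 (HSP27), a small heat shock protein, was listed at 0 in 4 libraries and at 0.123 and 0.133 RPKM in the other two, 1 read each, where 3 reads would be 0.349 to 0.402 RPKM. Both were left untested. A listed 0 is a row to which no read was assigned, and whether the gene itself was silent was not tested.

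Among HSP90 co-chaperones, changes went both ways. Cdc37, which brings kinases to HSP90, was read at 229, 240.1 and 251 RPKM in the S487A libraries and at 287, 279.5 and 273 in the S487D libraries (log2 change 0.22, SE 0.044, adjusted p = 0.00276). Ahsa1, an activator of the HSP90 ATPase, was read at 68.7, 69.5 and 75.7 RPKM in the S487A libraries and at 63.2, 60.4 and 60.7 in the S487D libraries (log2 change -0.21, SE 0.047, adjusted p = 0.00564). All S487D libraries were thus above S487A for Cdc37 and below it for Ahsa1. Fkbp4, an immunophilin of steroid receptor complexes, rose from 143 ± 3.8 to 157 ± 2.3 RPKM (adjusted p = 0.0123), a call lost without S487D replicate 1 (0.0543) and after quantile normalization (0.138). Ptges3 (p23), which stabilises the closed form of HSP90, was at 192 ± 15.5 and 191 ± 8.3 RPKM (interval -0.14 to 0.13).

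The strongest contrast was between exchange factors of HSP70. Bag3, which also guides HSP70 clients to autophagy, lies on chromosome 1 from 199941258 to 199965191 (rn6). It was read at 35.2, 38.8 and 35.7 RPKM in the S487A libraries and at 65.7, 60.6 and 63.5 in the S487D libraries (log2 change 0.78, SE 0.051, adjusted p = 2.68e-06). Its lowest S487D library was thus far above its highest S487A library. Hsph1 (HSP105), on chromosome 12 from 6322685 to 6341898, was read at 67.1, 71.2 and 70.2 RPKM in the S487A libraries and at 50.6, 47.1 and 48.0 in the S487D libraries (log2 change -0.51, SE 0.044, adjusted p = 1.66e-05). The ratio of Bag3 to Hsph1 was 0.526 ± 0.018 in S487A and 1.30 ± 0.018 in S487D, a description only, since the genes were picked for their opposite changes. Both kept direction and call in all 15 alternatives, with log2 changes of 0.75 to 0.83 for Bag3 and -0.54 to -0.45 for Hsph1. Hspa4, another HSP110 protein, was at 91.8 ± 4.2 and 95.1 ± 2.5 RPKM, with overlapping groups (adjusted p = 0.371).

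HSP70 genes themselves changed less. Hspa8 (HSC70), the constitutive cytosolic HSP70, was read at 148, 154 and 153 RPKM in the S487A libraries and at 154, 147 and 136 in the S487D libraries (log2 change -0.06, interval -0.17 to 0.05, adjusted p = 0.362). The groups overlapped, and the gene was called lower after quantile normalization alone (adjusted p = 0.0254). Hspa14, which works at the ribosome with Dnajc2, was read at 23.0, 21.2 and 22.5 RPKM in the S487A libraries and at 27.3, 29.1 and 25.4 in the S487D libraries (log2 change 0.28, SE 0.059, adjusted p = 0.00391). It had the second-highest log2 change of the tested members, and its row encloses a low uncharacterised row on the same strand (1.41 to 2.12 RPKM). Hspa2 was at 2.94 ± 0.18 and 3.35 ± 0.24 RPKM, from 72 to 92 reads, and was not called (adjusted p = 0.176), except as higher after quantile normalization alone (0.0295). St13 (Hip), which holds HSP70 in its client-bound state, was read at 49.6, 45.0 and 49.7 RPKM in the S487A libraries and at 41.6, 41.2 and 40.8 in the S487D libraries, a fall of 1.16-fold (adjusted p = 0.00498).

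Of the J-domain genes, 2 of 7 rose, 1 fell and 4 passed no test, a share called of 42.9% beside 44.4% of all genes tested. Dnaja1, a main partner of Hspa8, was read at 210.1, 187 and 199 RPKM in the S487A libraries and at 172, 175 and 164 in the S487D libraries, a fall of 1.16-fold with no overlap (log2 change -0.22, SE 0.049, adjusted p = 0.00567). Its paralog Dnaja2 was at 125 ± 9.7 and 129 ± 7.0 RPKM (interval -0.09 to 0.19). Dnajc7, a co-chaperone that bridges HSP70 and HSP90, rose from 64.2 ± 2.2 to 72.8 ± 2.8 RPKM (adjusted p = 0.00992). Dnajb6, which suppresses protein aggregation, rose from 15.9 ± 0.49 to 18.5 ± 1.2 RPKM (adjusted p = 0.0189), a call lost without S487A replicate 2 (0.0622) or S487D replicate 2 (0.0627). Dnajb1 (HSP40), a heat-inducible partner of HSP70, was at 51.1 ± 2.2 and 52.6 ± 0.44 RPKM (interval -0.06 to 0.14). Dnajb4 was at 9.58 ± 0.30 and 8.77 ± 0.88 RPKM with overlapping groups, in a row that lies inside Lphn2 on the same strand.

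Hsf1, the heat shock transcription factor, was read at 19.9, 21.1 and 20.7 RPKM in the S487A libraries and at 19.6, 21.7 and 22.8 in the S487D libraries (log2 change 0.05, interval -0.08 to 0.18, adjusted p = 0.534). The groups overlapped. The genes with 3 alternating units in their promoter did not move one way: Hspe1 and Cct4 rose, Hsph1 and Dnaja1 fell, and Hspa8 and Hspd1 passed no test. Of the 9 tested genes with a pair of units but no row of 3, 5 rose (Bag3, Cdc37, Dnajb6, Cct5 and Fkbp4) and 4 passed no test. Of the 13 with neither, 3 rose, 1 fell and 9 passed no test. The shares called were thus 66.7%, 55.6% and 30.8% in classes of 6, 9 and 13 genes, on both sides of the 44.4% of all genes tested. A match of letters is not evidence of binding, and the difference between these classes was not tested. The calls of Cct4, Dnajb6 and Fkbp4 were lost in 9, 2 and 2 of 15 alternatives. Hspd1 and Hspe1 were counted as separate genes although they share the same elements. The protein and activity of HSF1 were not measured here.

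**Figure D4:**
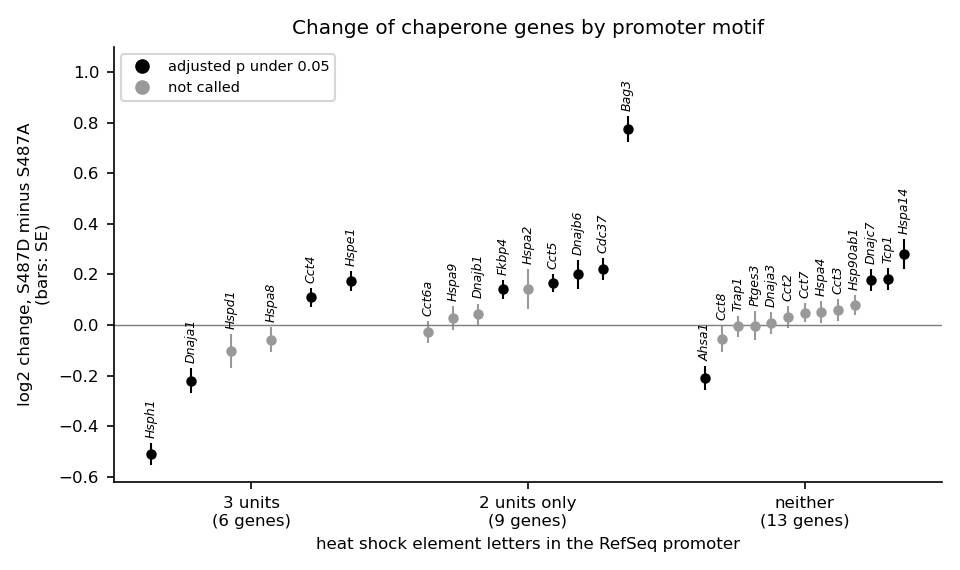
Log2 change of the 28 tested chaperone genes with a RefSeq promoter, by the heat shock element letters found in it; bars are SE, and black marks an adjusted p under 0.05. The 6 genes with 3 units run from -0.51 (Hsph1) to 0.17 (Hspe1), with called genes on both sides of 0.

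To see whether members moved with nearby genes, each was set beside the 25 tested genes on each side of it (fewer near a chromosome end). For 30 of 32 members the neighbours' median log2 change was between -0.1 and 0.1. Around Bag3 it was -0.05 and around Hsph1 0.01, far from the genes' own 0.78 and -0.51. The exceptions were Ahsa1, whose neighbours had a median of -0.12 with 20 of 50 called lower, and Fkbp4, whose neighbours had a median of 0.16 with 19 of 50 called higher. Fkbp4 itself changed by 0.14, no more than its neighbours' median.

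Chaperone genes outside the set were taken from a list of 57, of which 49 were tested. Of these, 11 were called higher, 13 lower and 25 neither way, with a median log2 change of -0.01, or 0.04 after median centring. The share called, 49.0%, was close to the 44.4% of all genes tested. The number called higher dropped to 7 without S487A replicate 1 and to 6 without S487D replicate 1. Hspa4l, a further HSP110 gene, fell from 6.23 ± 0.32 to 2.18 ± 0.20 RPKM (adjusted p = 2.90e-06, log2 change -1.19). Ppid, a cyclophilin co-chaperone of HSP90, fell from 14.1 ± 0.73 to 7.04 ± 0.16 RPKM, and Dnajc19, a J protein of mitochondrial import, from 15.7 ± 0.96 to 8.18 ± 0.13. All 3 lie on chromosome 2 among lowered genes, with 46 of 49 neighbours called lower for Hspa4l, 32 of 49 for Ppid and 47 of 49 for Dnajc19. The prefoldin gene Vbp1 rose from 36.2 ± 2.5 to 48.5 ± 2.6 RPKM (adjusted p = 4.35e-04, log2 change 0.41). Grpel2, a mitochondrial exchange factor of Hspa9, rose from 21.2 ± 1.2 to 26.1 ± 0.70 RPKM, and Dnajb5 from 10.0 ± 0.30 to 12.2 ± 0.21. Neighbours of these 3 had median log2 changes of 0.04, -0.02 and 0.03. The inducible HSP70 genes Hspa1a and Hspa1b were not tested, the first listed at 0 in every library and the second at 0.155 to 0.322 RPKM. Here too, few or no reads assigned to a row do not show that its gene was silent.

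**Figure D5:**
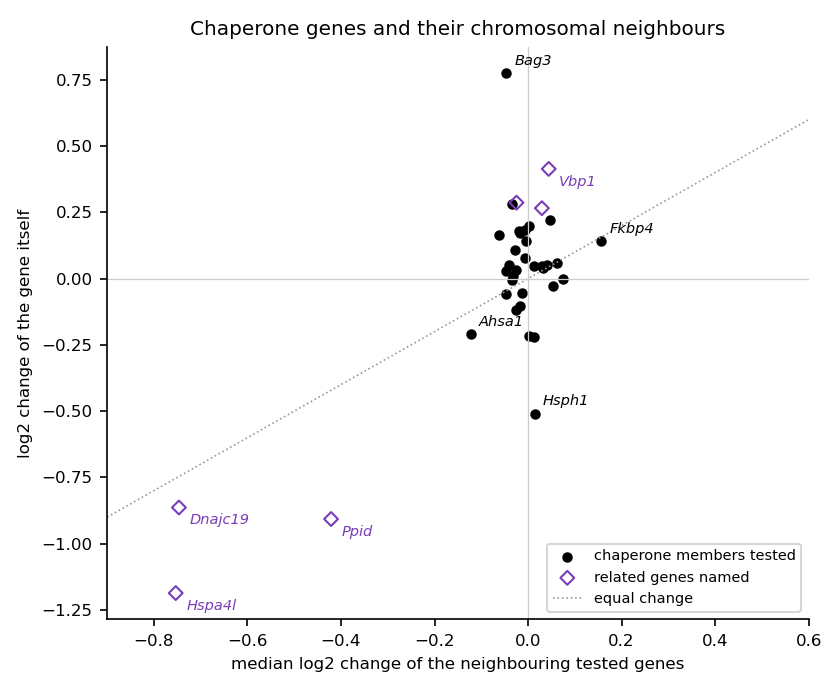
Log2 change of each tested chaperone member (dots) and of 6 related genes (diamonds) against the median log2 change of the neighbouring tested genes, with a dotted line of equal change. Bag3 and Hsph1 lie far above and below neighbours near 0, and Hspa4l, Dnajc19 and Ppid lie where the neighbours are lowered too.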

How the data were processed

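Messenger RNA of 6 INS-1 samples, 3 per mutant, was sequenced from non-stranded TruSeq libraries, per the labels' protocols. bcl2fastq 2.17, cutadapt, TopHat2 2.0.13 and build rn6 (Rnor_6.0) are named in the submitters' processing notes. The read counter was not given in the sources used here, nor was the annotation. The authors' deposited table gives RPKM per gene and library, and gene length in bases, per the file headers. RPKM times length fell on whole reads (within 0.05, up to 2000 reads) for 100% of values, which gave the depth and the reads used by limma voom.

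The test was limma 3.58.1 under R 4.3.3, run on log2(RPKM + 1) of genes at 1 RPKM or more in 3 or more libraries, with an intensity trend, two-sided, group as the only term, adjusted over all 12527 genes. Folds on this scale understate changes of low genes. The members and lists were chosen with earlier results of these data known. All 34 members are named, and up to 3 related genes with the largest change each way. Promoter sequences are RefSeq's (GRCr8, first entry per symbol). Groups come from sample titles. Same-group libraries were not duplicates: their chi-square was, at the median, 1.36 to 1.88 times that of sampling noise. Alternatives were pseudocount 0.1, no filter, RPKM of at least 5, quantile normalization, median centring, the 10 most read genes and ribosomal RNA left out, no trend, a replicate block, voom, and each library left out. Python 3.11.15, numpy 2.4.6, pandas 2.3.3 and scipy 1.17.1 were used.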

Additional observations from a re-analysis of the deposited data

How the results depend on the processing

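Of the 14 called members, 11 kept direction and call in all 15 alternatives, and Cct4, Dnajb6 and Fkbp4 kept direction only. Of the 18 members not called, 5 were called in 1 or 2 alternatives. The number of members called higher ran from 8 to 10 and of those called lower from 4 to 5 with a library left out. The members' median log2 change of 0.05 was 0.0357 to 0.0582 with a library left out, 0.000172 after quantile normalization and 0.106 after median centring, which shifted the median of all genes by 0.058. For the related genes, the number called higher was 6 to 11 with a library left out, and the median log2 change was 0.0431 after median centring; the cause was not tested. Voom on recovered reads called 5951 genes in place of 5564, and 11 members higher and 4 lower. With the replicate number as a block, 9 members were called higher and 4 lower, and 5335 genes in all. Whether the numbers pair the samples is not in the labels. Deviations of same-numbered libraries from their group means had correlations across genes of 0.0035, -0.060 and 0.010. These values cannot decide it, since deviations within a group cancel by construction. Depth limits Hspa2 (72 to 92 reads) and Hspb1 (at most 1 read).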
